A study of Danio rerio with 3 samples.

Results

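NP2 is 1 of the 28 classes that the authors of the data named in cells sorted from zebrafish embryos carrying the transgene Tg(olig2:EGFP), and it holds 371 of 6264 cells (5.92%). Its members were taken as every cell with that name in the finer annotation of the integrated table, a table of all cells over the 3 stages, and their stage from the same table. All 371 cells, and no other cell, formed a single cluster among the 27 graph clusters deposited there. There were 137 NP2 cells at 24 hours post fertilisation (hpf), 135 at 36 hpf and 99 at 48 hpf. All embryos were untreated and wild type apart from the transgene, and stage is the only contrast in the labels. The barcode set of the 48 hpf library also differed, as given below. Each stage was a single library of EGFP-positive cells, so no value below has a replicate and stages are compared without a test or p-value. Embryos were collected together in tubes before dissociation, so cells of a library cannot be traced to single embryos. The name NP is not spelled out in the labels. The working name used for these cells is neural precursor, and without values per gene it could not be checked against marker genes.

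In the ventral spinal cord, progenitors of the pMN domain express the transcription factor olig2 and divide in contact with the central canal. Daughters that become neurons leave the cell cycle, and the domain turns later to the oligodendrocyte lineage. EGFP outlasts the activity of the transgene in the descendants of these progenitors, so a sort for EGFP gathers dividing progenitors, cells on the way to becoming neurons, and neurons. Single-cell data sort such cells by the RNAs of genes that peak in DNA synthesis (an S score) or around division (a G2M score), and a cell with neither score above 0 is called G1, a name that also covers cells that have stopped dividing.

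The 3 libraries held 1826 to 2394 cells, with median depths of 4569 to 8935.5 UMIs (unique molecular identifiers, single counted RNA molecules) per cell. No cell barcode was shared between the 48 hpf library and the others, and 7 were shared between the 24 and 36 hpf libraries, of which 2 belonged to an NP2 cell. Of the NP2 cells at 48 hpf, 90.9% (90 of 99) had a barcode whose first 7 bases occurred in neither other library, whereas 98.5% of those at 36 hpf (133 of 135) had a start found at 24 hpf. Stage and barcode set thus cannot be told apart in any NP2 value of 48 hpf set against 24 or 36 hpf. All intervals below are 95% intervals of counting error, and variation among embryos, sorts and libraries lies outside them.

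NP2 took its smallest share of the sorted cells at 48 hpf. It was 7.50% of the 24 hpf library (exact binomial interval 6.34 to 8.81), 6.60% of the 36 hpf library (5.57 to 7.77) and 4.14% of the 48 hpf library (3.37 to 5.01). The intervals at 24 and 36 hpf overlapped, and the interval at 48 hpf lay below both. Set against 24 hpf, the share was 1.14-fold lower at 36 hpf (0.889 to 1.45) and 1.81-fold lower at 48 hpf (1.39 to 2.37). Set against 36 hpf, it was 1.60-fold lower at 48 hpf (1.22 to 2.09). None of these reached the size used for a call, a ratio of at least 2 with intervals that do not overlap. Over the 28 classes that rule called 25.0% higher and 14.3% lower at 36 over 24 hpf, 39.3% higher and 17.9% lower at 48 over 24 hpf, and 28.6% higher and 21.4% lower at 48 over 36 hpf. By size of the log2 ratio, NP2 had the 2nd smallest change of all classes at 36 over 24 hpf, the 6th smallest at 48 over 24 hpf and the 10th smallest at 48 over 36 hpf.

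The nearest classes had other courses. NP1, the other class with this name, was 4.87%, 5.77% and 8.48% of the 3 libraries in order of stage, and Pre-MN, by its name the step before motor neurons, was 2.41%, 5.43% and 6.73%. NP2 was thus the largest of the 3 classes at 24 hpf and the smallest at 48 hpf. In libraries weighted to a common spread of UMI counts, with 875 cells each, the NP2 share was 10.1% at 24 hpf, 2.79% at 36 hpf and 2.94% at 48 hpf. In those cells the log2 ratios at 36 over 24 hpf (-1.86) and at 48 over 24 hpf (-1.79) were both called lower, and that at 48 over 36 hpf was 0.074. NP2 cells were shallower than the rest of each library, and the part of this in the ratios was not tested.

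In the tables of single stages NP2 cells were mostly named Pre-MN at 24 hpf and mostly NP at 36 and 48 hpf, with different cells at each stage. At 24 hpf 88 of the 137 NP2 cells (64.2%, 55.6 to 72.2) were named Pre-MN in the stage table, 48 were named NP (35.0%, 27.1 to 43.6) and 1 was named pMN2. At 36 hpf 46 of 135 were Pre-MN (34.1%, 26.1 to 42.7), 87 were NP (64.4%, 55.8 to 72.5) and 1 each was pMN2 and MN2. At 48 hpf 4 of 99 were Pre-MN (4.04%, 1.11 to 10.0), 94 were NP (94.9%, 88.6 to 98.3) and 1 was MN1. The intervals of the Pre-MN share did not overlap between any 2 stages. They cover counting error and not how names were set in each stage table. What the name Pre-MN held also differed by stage, as given below, so no course over the stages is read from these shares. No NP2 cell of any stage carried the name of a glial, floor plate or interneuron class in the stage tables.

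**Figure D1:**
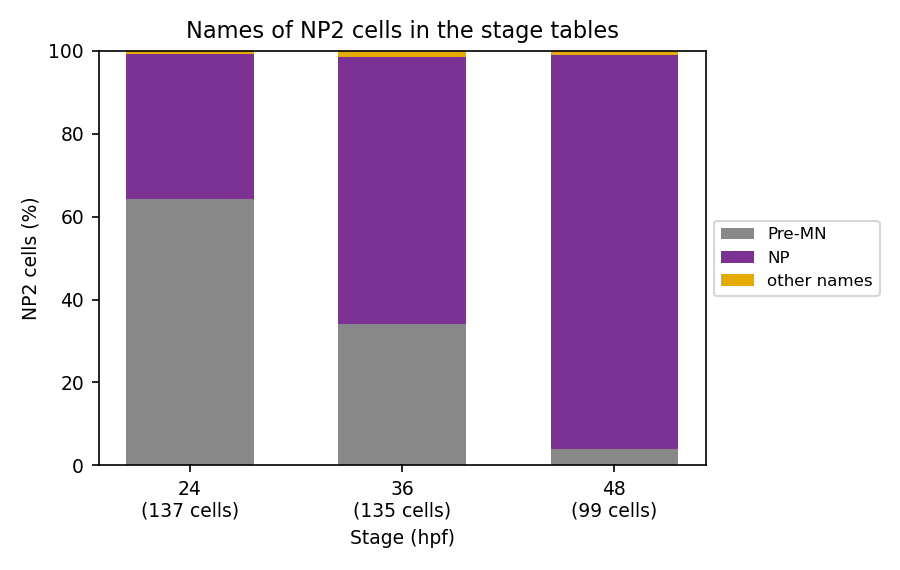
Names that the NP2 cells carried in the table of their own stage, as a percentage of the NP2 cells of that stage (stage in hpf on the horizontal axis, 137, 135 and 99 cells). The Pre-MN part was 64.2%, 34.1% and 4.04% in order of stage. Names other than NP and Pre-MN were held by 1 or 2 cells per stage.

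Read in the other direction, NP2 was the largest content of the name Pre-MN at 24 hpf but not later. Of the 178 cells named Pre-MN in the 24 hpf table, 49.4% were NP2, 21.3% were NP1 and 17.4% were Pre-MN in the integrated table. At 36 hpf 33.8% of 136 such cells were NP2 and 65.4% were Pre-MN, and at 48 hpf 2.67% of 150 were NP2 and 88.0% were Pre-MN. The name NP was shared by both NP classes. NP2 held 36.9% of the 130 cells named NP at 24 hpf, 42.6% of 204 at 36 hpf and 50.0% of 188 at 48 hpf, where NP1 held 18.5%, 50.0% and 48.4%. At 24 hpf the name also took in pMN3 (19.2%), pMN2 (10.8%) and NM Progenitor (10.8%), and at 36 hpf pMN3 (5.39%). At 48 hpf 0 of 99 NP2 cells carried the name RG (radial glia), whereas 111 of 203 NP1 cells did.

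NP2 cells with different stage names were alike in depth at 36 hpf and less so at 24 hpf. The 48 NP2 cells named NP at 24 hpf had a median of 8617 UMIs and 1868 detected genes, and the 88 named Pre-MN had 7011 UMIs and 1713.5 genes. At 36 hpf the medians were 4094 UMIs and 1163 genes in 87 cells named NP, and 3941 UMIs and 1146 genes in 46 named Pre-MN. The interquartile ranges overlapped at both stages. In the embedding (a flat map of the cells) of the integrated table, the 15 nearest neighbours of an NP2 cell were mostly NP2 cells, at 94.3%, 90.7% and 91.6% of all neighbours in order of stage. At 36 hpf, Pre-MN cells were 12.0% of the neighbours of NP2 cells named Pre-MN, and NP1 cells 3.14% of the neighbours of those named NP. At 24 hpf Pre-MN cells were 2.35% and NP1 cells 1.97% of the neighbours of NP2 cells named Pre-MN. Of the neighbours of NP2 cells named NP, NP1 cells were 4.58% there, and no Pre-MN cell was among them. In the embeddings of the single stages NP2 was less closed, with 77.4%, 86.0% and 85.3% NP2 neighbours and 11.2%, 8.25% and 11.1% NP1 neighbours. Neighbours of the same stage made up 61.2%, 55.2% and 66.7% in the integrated embedding, where the stages held 36.9%, 36.4% and 26.7% of the NP2 cells. These shares describe a drawing made from the same expression values as the classes and are not independent of them.

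NP2 was a class of cells called G1, except by the stage table at 48 hpf. At 24 hpf 2 of 137 NP2 cells were called S or G2M by the stage table (1.46%, 0.177 to 5.17), and 11 by the integrated table (8.03%, 4.08 to 13.9). At 36 hpf they were 2 of 135 by the stage table (1.48%, 0.180 to 5.25), and 6 by the integrated table (4.44%, 1.65 to 9.42). At 48 hpf they were 49 of 99 by the stage table (49.5%, 39.3 to 59.7), of which 32 were called S and 17 G2M. By the integrated table they were 0 of 99, with an exact interval of 0 to 3.66. In ratios a floor of 3 cells (3.03%) stands for this count of 0. The share called was therefore highest at 48 hpf by the stage tables and lowest there by the integrated table. Each stage table was scored apart from the others, so no course over the stages is read from its calls. As counts of calls only, the stage-table share at 48 hpf was 33.9-fold that at 24 hpf (8.90 to 288). It was 33.4-fold that at 36 hpf (8.77 to 284), each against 2 called cells. With the floor in place of 0, the share by the integrated table was 2.65-fold lower at 48 than at 24 hpf. The intervals of the 2 shares just missed each other, so it was called lower. The exact interval of that ratio reached down to 1.81-fold lower, short of the 2-fold size. That call ended among cells with at most 3% mitochondrial reads, where the 83 NP2 cells left at 48 hpf gave a log2 ratio of -1.17 with overlapping intervals (-1.41 in all cells). By the integrated calls, 28.6% of the 7 classes with at least 50 cells at both stages were called lower at 48 over 24 hpf and 0% higher. NP2 itself was 1 of the 2 classes called lower, so that rate is not independent of it.

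**Figure D2:**
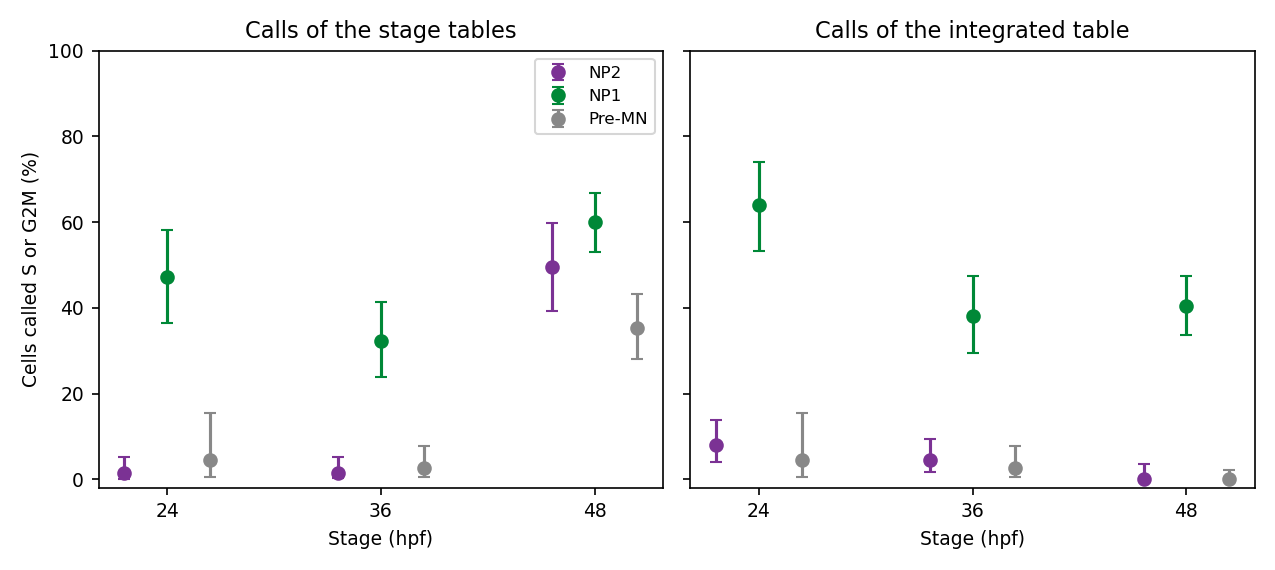
Percentage of cells called S or G2M in NP2, NP1 and Pre-MN at each stage (hpf), by the calls of the stage tables on the left and of the integrated table on the right. Points are shares of cells in 1 library and bars are exact 95% binomial intervals. NP2 stands at 49.5% at 48 hpf by the stage table and at 0% by the integrated table.

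NP2 stood far below NP1 in these calls at the earlier stages by both tables. At 24 hpf NP2 was at 1.46% and NP1 at 47.2% by the stage table, and at 8.03% and 64.0% by the integrated table. At 36 hpf NP2 was at 1.48% and NP1 at 32.2% by the stage table, and at 4.44% and 38.1% by the integrated table. At 48 hpf NP2 was at 49.5% and NP1 at 60.1% (53.0 to 66.9) by the stage table, with overlapping intervals, and at 0% and 40.4% by the integrated table. Matching NP2 and NP1 cells on UMI count within a stage left these distances in place, with integrated shares of 7.31% and 65.7% at 24 hpf, 4.33% and 33.2% at 36 hpf, and 0% and 38.8% at 48 hpf. Pre-MN was closer to NP2. By the integrated table NP2 had 8.03% and Pre-MN 4.55% (2 of 44 cells) at 24 hpf, NP2 4.44% and Pre-MN 2.70% at 36 hpf, and neither had any such cell at 48 hpf. Cells of both classes were also matched on UMI count, each class weighted to 36 cells at 24 hpf. The integrated shares there were 12.1% (3.11 to 26.1) in NP2 and 0% (0 to 9.74) in Pre-MN. These intervals take weighted counts, rounded to whole cells, as counted cells, so they are approximate. At 36 hpf the matched shares were 4.23% in NP2 and 2.76% in Pre-MN. By the stage table at 48 hpf NP2 was at 49.5% and Pre-MN at 35.4% (28.0 to 43.3), a ratio of 1.40 (0.934 to 2.08) that was not called. All 3 classes were cut from the expression of these cells, so the distances between them are descriptions.

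At 48 hpf, NP2 had the largest gain between tables among the 19 classes of at least 50 cells. Its share called S or G2M was 49.5 percentage points higher by the stage table than by the integrated table, next to 35.4 points in Pre-MN, 31.5 in MN5 and 28.2 in CMN. Below that size, the 45 Pre-V3 IN cells had a gain close to that of NP2, 48.9 points, with 22 called by the stage table and 0 by the integrated table. Both tables call the same cells, and the size rule treats their intervals as if from separate cells, so its counts here are descriptions. The rule called 0 of 11 classes at least 2-fold higher by the stage table at 24 hpf, and 0 of 15 at 36 hpf. At 48 hpf it called 10 of the 19 classes (52.6%) higher, with intervals apart. RG went the other way, with 21.5% by the stage table and 98.5% by the integrated table, and pMN1 and pMN2 were at 100% by both. Motor neurons, known as cells that have left the cell cycle, are given beside NP2. The classes MN1 to MN5 together were at 18.9% by the stage table (154 of 813 cells, 16.3 to 21.8) and 0.615% by the integrated table at 48 hpf, where their median depth was 4695 UMIs and that of NP2 4881. The single classes differed, from 9.05% in MN4 (5.54 to 13.8) to 32.4% in MN5 (26.5 to 38.7) by the stage table at 48 hpf. The NP2 interval there (39.3 to 59.7) lay above that of MN5 by less than 1 percentage point and overlapped that of CMN (23.1 to 44.9). At 24 and 36 hpf NP2, at 1.46% and 1.48%, did not exceed the 2.11% and 3.07% of the motor neurons by the same tables. By the integrated table NP2 had 8.03% against 1.41% in motor neurons at 24 hpf and 4.44% against 2.51% at 36 hpf, with overlapping intervals at both stages.

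**Figure D3:**
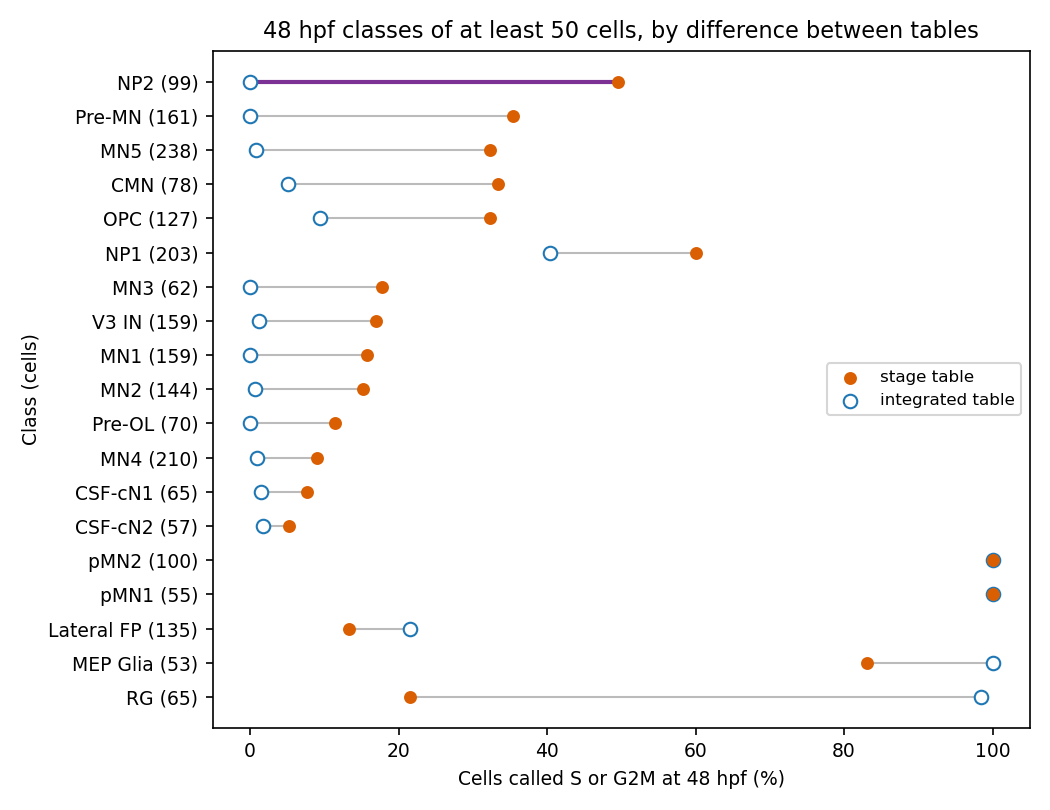
Percentage of cells called S or G2M at 48 hpf in each of the 19 classes with at least 50 cells, by the stage table (filled) and the integrated table (open), ordered by the difference between the tables. NP2, at the top, has the largest gain, 49.5 percentage points, and RG at the bottom the largest loss.

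The scores behind these calls show where the NP2 cells lay. In the integrated table the median S score of NP2 was -0.264, -0.286 and -0.275 at 24, 36 and 48 hpf, and the median G2M score was -0.128, -0.140 and -0.142. Medians differed between stages by at most 0.0226 for S and 0.0139 for G2M, with interquartile ranges of 0.050 to 0.088 within a stage. In the 3 stage tables, each scored apart from the others, the NP2 medians were -0.351, -0.162 and -0.012 for S and -0.221, -0.157 and -0.027 for G2M in order of stage. For a single cell at 48 hpf the S score was a median of 0.260 higher in the stage table than in the integrated table, and it was higher in 99 of 99 cells. At 24 hpf it was a median of 0.089 lower in the stage table, and lower in 128 of 137 cells. At 36 hpf it was a median of 0.114 higher in the stage table, and higher in 131 of 135 cells. There the stage table nonetheless called fewer NP2 cells, 2 against 6. The other cells of the libraries shifted the same way in S score, by medians of -0.074, 0.091 and 0.251 in order of stage. The median G2M shift of NP2 was -0.091, -0.020 and 0.117 in order of stage. The labels do not state how the scores were made. Whether a level means the same in another table is thus not known, and no course over the stages is read from the stage tables.

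**Figure D4:**
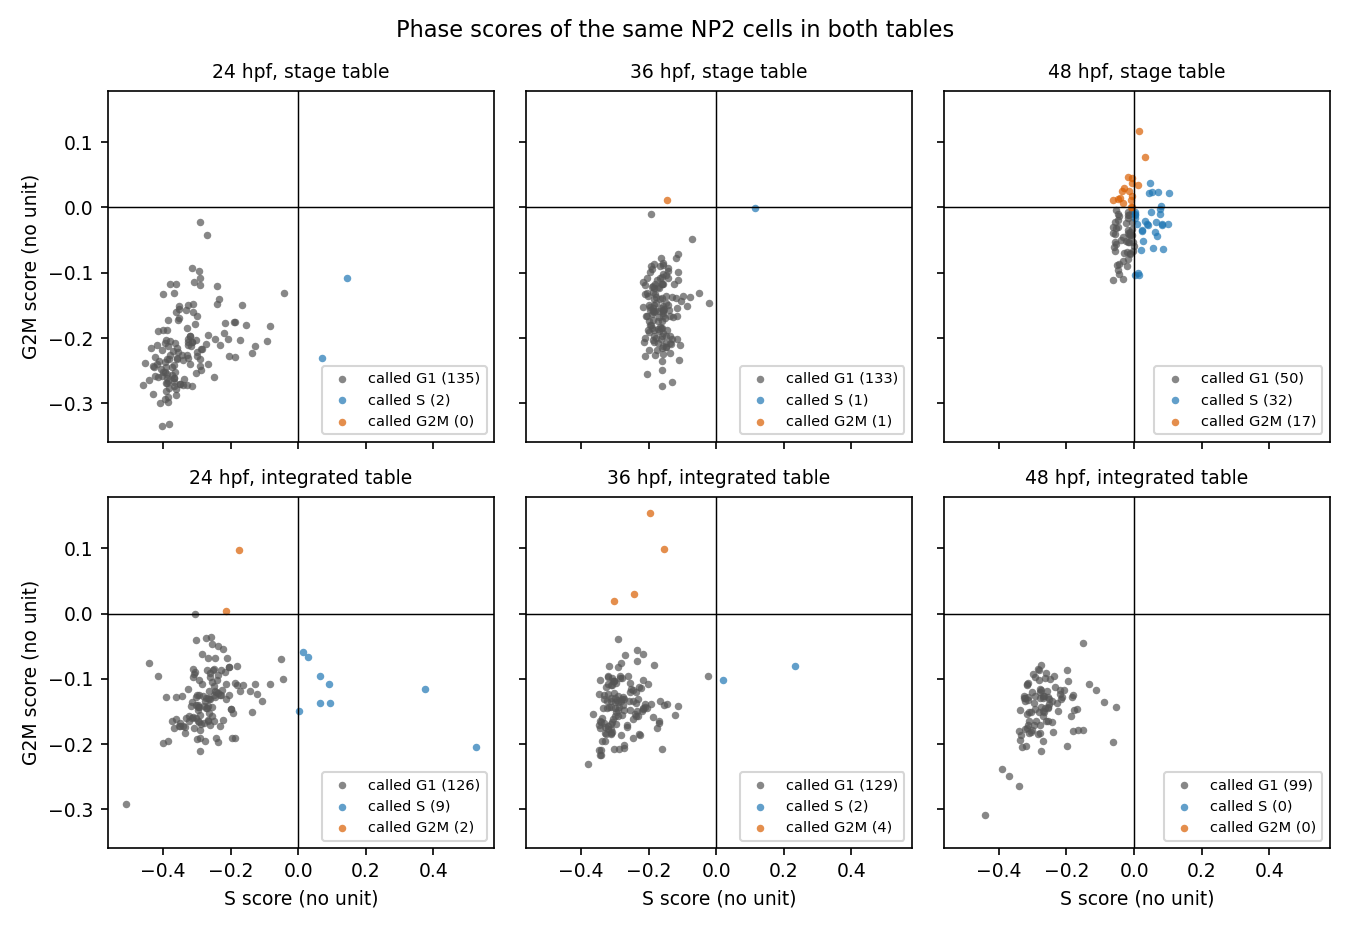
S score (horizontal) and G2M score (vertical) of each NP2 cell, from the stage tables in the upper row and the integrated table in the lower row, at 24, 36 and 48 hpf from left to right. Colours give the deposited call and the lines mark a score of 0. The 48 hpf cells straddle both lines in the stage table and lie wholly below them in the integrated table.

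The NP2 cells called S or G2M at 48 hpf by the stage table had scores close to 0. Their higher score had a median of 0.034, and 3 of the 99 NP2 cells (3.03%, 0.629 to 8.60) had one above 0.1. In the same table the median higher score was 0.671 in pMN1 and 0.780 in pMN2, and all cells of both classes were above 0.1. Of the NP2 cells at 48 hpf, 77.8% lay within 0.05 of 0 by the higher score of the stage table, and 1.01% by that of the integrated table. The middle of the 48 hpf stage table was narrow, with an interquartile range of the S score of 0.058. It was 0.243 for the same cells in the integrated table. The high scores of pMN1 and pMN2 differed between the tables in opposite directions, and the part of scale in the calls was not tested. In the integrated table the median higher score was 0.616 in pMN1, below its stage value, and 1.05 in pMN2, above its stage value. Ranks are free of such differences in scale. By the higher score the median NP2 cell at 48 hpf stood at percentile 66.0 of its library in the stage table, where 66.6% of the library was called G1, and at percentile 59.2 in the integrated table, where 79.9% was. At 24 hpf the percentiles were 21.2 and 24.0, with 37.1% and 34.2% of the library called G1 by the stage and the integrated table.

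Other cutoffs of the scores gave other distances between the tables at 48 hpf. Where a call needed a score above 0.1, the stage scores called 3 of 99 NP2 cells at 48 hpf (3.03%, 0.629 to 8.60). The integrated scores called 0 of 99 (0 to 3.66), and the intervals overlapped. The highest NP2 score at 48 hpf was 0.117 in the stage table and -0.045 in the integrated table. A cutoff of 0.1 thus left few or no NP2 cells to call in either, and it cannot show whether the tables agree. A lower cutoff, moved for the stage scores only, kept the tables apart. With a cutoff that called as many cells of each library as the integrated table did (481 cells at 48 hpf), a setting chosen after seeing the data, 5 of 137 NP2 cells were called at 24 hpf (3.65%), 4 of 135 at 36 hpf (2.96%) and 27 of 99 at 48 hpf (27.3%, 18.8 to 37.1). With it NP1 was at 33.5% and Pre-MN at 11.2% at 48 hpf. The order of cells by score also differed between tables at that stage, in NP2 and in the rest of the library. Spearman's rho between the stage and the integrated G2M score was 0.256 across the 99 NP2 cells. It was 0.587 across the 135 NP2 cells at 36 hpf and 0.653 across the 137 at 24 hpf. For the S score the values in NP2 were 0.673 at 48 hpf, 0.612 at 36 hpf and 0.737 at 24 hpf. All other cells had 0.945 at 24 hpf and 0.460 at 48 hpf for G2M, and 0.921 and 0.542 for S. At 48 hpf NP1 had 0.383 for G2M and 0.254 for S, and Pre-MN had 0.620 and 0.557. These are descriptions over cells that share a library and whose 2 scores come from the same counts.

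The NP2 cells that were called S or G2M by the integrated table were few and mostly near the cutoff. The 11 at 24 hpf comprised 9 called S and 2 called G2M, with higher scores of 0.001 to 0.527 and a median of 0.066, and 2 of the 11 were also called S by the stage table. The 9 called S had a median of 9913 UMIs (lowest cell 6367, highest cell 15752), and the 126 NP2 cells called G1 had 7236.5. The 6 at 36 hpf comprised 2 called S and 4 called G2M, with higher scores of 0.020 to 0.235, and 2 were also called by the stage table. At 48 hpf the NP2 cells called by the stage table had a median depth near that of the others, but a narrower spread. The 49 called S or G2M had a median of 4934 UMIs and 1609 genes, and the 50 called G1 had 4831.5 UMIs and 1564.5 genes. UMI quartiles were 4371 and 5366 in the called cells (highest cell 9604). They were 4213.25 and 6012.75 in the G1 cells (highest cell 13894). A link between call and depth was not tested.

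NP2 cells had fewer UMIs and fewer detected genes than the rest of each library. Median depth in NP2 was 7298 UMIs with quartiles of 5820 and 8870 at 24 hpf, 4049 with 3483.5 and 4589 at 36 hpf, and 4881 with 4331.5 and 5922.5 at 48 hpf, where all other cells had medians of 9135, 4625 and 5856. Median detected genes were 1767, 1154 and 1601 in NP2 and 2086, 1376 and 1976 in all other cells. Among classes of at least 50 cells, NP2 had the 2nd lowest median gene count of 11 classes at 24 hpf, above NP1 (1633), and the 2nd lowest of 19 at 48 hpf, above MN5 (1411.5) and next to NP1 (1603). At 36 hpf it was the 4th lowest of 15.

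Part of that distance remained in a common range of 4000 to 6000 UMIs, though depth was not equal within it. Median UMIs in the range were 5389 in NP2 and 5367.5 in all other cells at 24 hpf. They were 4548 and 4742 at 36 hpf, and 4784 and 4938.5 at 48 hpf. The part of this in the gene counts was not tested. Among cells of 4000 to 6000 UMIs, NP2 had a median of 1446 genes (15 cells) and all other cells 1484.5 at 24 hpf, a difference within the interval of the NP2 median (1391 to 1512). At 36 hpf NP2 had 1211 genes (68 cells, 1188 to 1241) and all other cells 1396 (1374 to 1418), and at 48 hpf NP2 had 1592 (61 cells, 1551 to 1610) and all other cells 1742.5 (1728 to 1766). NP1 in the same range had 1498, 1223 and 1590 genes and Pre-MN 1224 at 36 hpf and 1644 at 48 hpf, so both were nearer to NP2 than the whole library was at the later stages. The 48 hpf NP2 cells had more genes than those at 36 hpf in this range, and the barcode sets differ between these libraries.

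The spread of detected genes in NP2 was narrow at the later stages. Its interquartile range of detected genes, divided by the median, was the narrowest of all classes of at least 50 cells at 36 hpf (0.131, next Pre-MN at 0.185) and at 48 hpf (0.162, next CSF-cN2 at 0.168), and the 6th narrowest of 11 at 24 hpf (0.281). For UMIs the spread of NP2 was the 6th narrowest of 11 classes at 24 hpf, the 2nd of 15 at 36 hpf and the 6th of 19 at 48 hpf. For the mitochondrial share it was the 4th, the 2nd and the 10th narrowest of the same classes. Few NP2 cells were shallow. Cells below 2000 UMIs were 2.92% of NP2 (0.801 to 7.31), 19.1% of NP1 and 22.7% of Pre-MN at 24 hpf, and 2.22% (0.461 to 6.36), 16.9% and 9.01% at 36 hpf. At 48 hpf there was no such cell among 99 NP2 cells, with 2.96% in NP1 and 5.59% in Pre-MN. All cells other than NP2 stood at 7.34% (6.14 to 8.69) at 24 hpf, where the interval overlapped that of NP2. They stood at 10.6% (9.29 to 12.1) at 36 hpf and 4.49% (3.68 to 5.42) at 48 hpf. The mitochondrial share of NP2 followed the libraries, with medians of 0.664%, 0.976% and 2.28%, where all other cells had 0.689%, 1.06% and 2.36%.

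**Figure D5:**
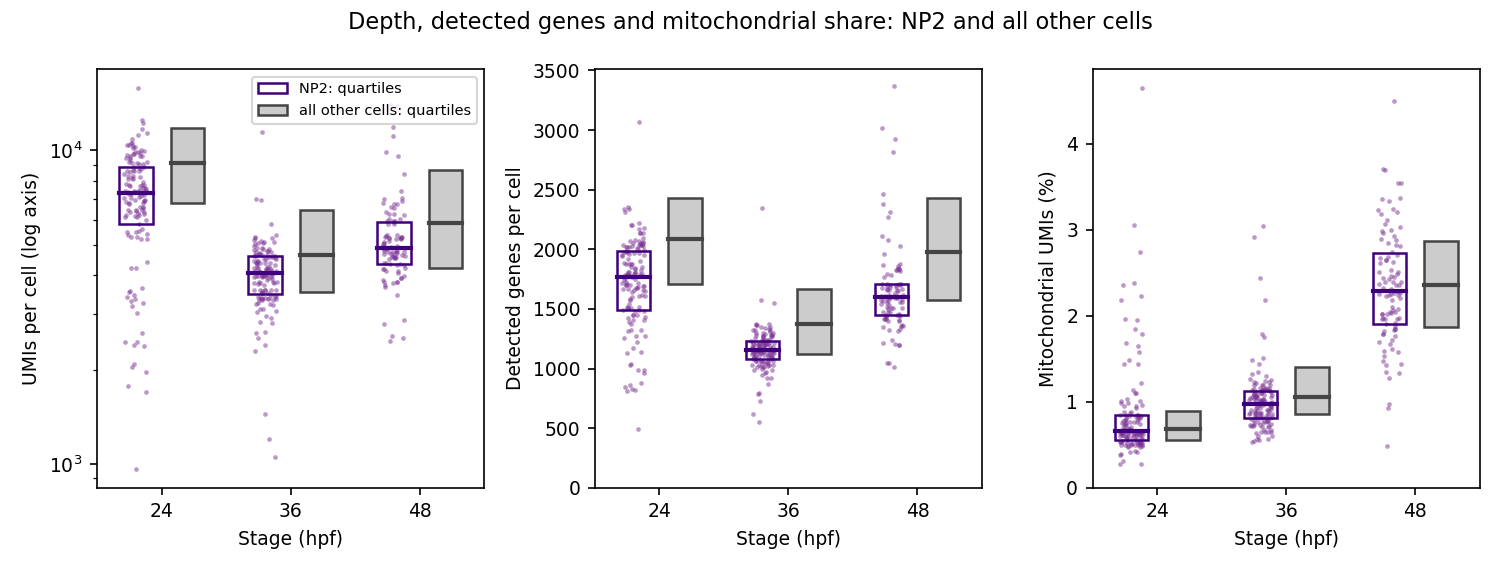
UMIs per cell (log axis), detected genes per cell and mitochondrial share (percent) by stage (hpf). Points are NP2 cells, boxes give the quartiles and thick lines the medians of NP2 on the left and of all other cells of the library on the right. At each stage the NP2 median lies below that of the other cells for UMIs and genes, and the NP2 box for genes is narrow at 36 and 48 hpf.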

How the data were processed

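EGFP-positive cells of Tg(olig2:EGFP) embryos were profiled with 10x Chromium 3' libraries, 1 each at 24, 36 and 48 hpf, per the labels' protocols. The submitters' processing notes list Cell Ranger, Seurat and GRCz11 without versions or settings. The deposited tables list cells, not genes. Per the file headers, UMIs and detected genes are raw counts, the mitochondrial share is a percent of a cell's UMIs, and the S and G2M scores and embedding coordinates are scores deposited by the authors, once per stage table and once for the integrated table. All 6264 cells were joined by barcode and stage, with equal UMI counts. In both kinds of table the deposited call followed the higher score in all 6264 cells, with G1 where neither was above 0. The treatment of doublets is not stated in the labels or files.

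The class, its comparisons and the settings were chosen with earlier results of these data known. Shares have exact (Clopper-Pearson) 95% intervals, ratios of class shares exact conditional intervals, and medians order-statistic intervals. A ratio was called at 2-fold or more with intervals apart, with a count of 0 replaced by 3 cells, and no ratio is given where both counts were 3 or fewer. Classes named beside NP2 were NP1, Pre-MN, stage names held by at least 5% of NP2, classes holding at least 5% of such a name, and neighbours of NP2 in an order; RG, pMN1, pMN2, Pre-V3 IN, CMN and the motor neuron classes were added after their values were seen. UMI matching weighted 20 bins of log UMI count to equal cell numbers. Intervals after matching took the weighted counts, rounded to whole cells, as counted cells. They are not exact, and the calls after matching rest on them. The fixed marker genes could not be used without values per gene. The size rule and intervals were tested on simulated whole counts from separate sets of cells with low shares. Weighted counts, high shares and the same cells called by both tables were not simulated. Tables were handled in pandas 2.3.3 under Python 3.11.15 with numpy 2.4.6, intervals came from scipy 1.17.1, neighbours from scikit-learn 1.9.0 and plots from matplotlib 3.10.9.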

Additional observations from a re-analysis of the deposited data

Results flagged for a closer look

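The share of NP2 cells called S or G2M differed between the stage table and the integrated table in opposite directions by stage. The stage table minus the integrated table was -6.57 percentage points at 24 hpf and -2.96 at 36 hpf, but 49.5 at 48 hpf. The sign turned in the same way in NP1, at -16.9, -5.93 and 19.7 points. It also turned in the whole libraries, where 62.9%, 37.7% and 33.4% of cells were called by the stage tables, against 65.8%, 38.6% and 20.1% by the integrated table, in order of stage. The sign did not turn this way in every class. In Pre-MN the difference was 0, 0 and 35.4 points in order of stage, and in Lateral FP 3.09, 1.50 and -8.15 points. With 1 library per stage the difference between the tables in NP2 was not tested. The 48 hpf library also differs from the others in its barcode set, and the part of that in the result was not tested.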

How the results depend on the processing

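Of 73 recomputed values for 32 results, 53 kept their direction and side of the size rule, or stayed within the interval of the value reported. Of these, 21 came from a minimum of 2000 UMIs per cell. That minimum dropped 4 NP2 cells at 24 hpf, 3 at 36 hpf and 0 at 48 hpf. NP2 medians and name shares at 48 hpf thus could not change under it. A cap on UMIs per cell dropped no NP2 cell at 24 or 48 hpf. The count of 53 therefore includes values that had little or no room to move, and it is not a measure of stability. Matching on UMI count brought the NP2 share past the size rule at 36 over 24 hpf (log2 ratio -1.86) and at 48 over 24 hpf (-1.79) and turned that at 48 over 36 hpf to 0.074. Counting cells named NP in the stage tables, a different set of cells, turned the ratios at 36 and 48 over 24 hpf to 0.49 and 0.14. For the share called S or G2M, the stage calls gave 5.08 at 48 over 24 hpf and 5.06 at 48 over 36 hpf. The cutoff on stage scores calling as many cells as the integrated table gave 2.90 and 3.20, and all were reversed. Stage tables were scored apart from each other, so no course over the stages is read from these values. At most 3% mitochondrial reads ended the call at 48 over 24 hpf (-1.17), where fewer cells were left. Stage calls also took the difference between NP2 and NP1 at 48 hpf under the size rule, at -0.28. The integrated calls gave -3.74, with the floor of 3 cells in place of the NP2 count of 0. The scores of the stage tables moved all 6 medians, to S scores of -0.351, -0.162 and -0.012 and G2M scores of -0.221, -0.157 and -0.027 in order of stage. In cells of 4000 to 6000 UMIs median genes were 1446 at 24 hpf and 1211 at 36 hpf, and the median mitochondrial share at 24 hpf was 0.585%. The causes were not tested. With a score above 0.1 needed for a call, both counts of every pair of stages were 3 or fewer, and no ratio could be given, as for stage calls at 36 over 24 hpf, integrated calls in NP2 against Pre-MN at 48 hpf (1.40-fold by stage calls, not called), and stage calls in that pair at 24 and 36 hpf. No analysis paired across stages was possible because each stage has 1 library. The 99 to 137 NP2 cells per stage limit every share given here.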
